A study of Mus musculus with 6 samples.

Results

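The genes described here encode the subunits of the 5 complexes of the mitochondrial respiratory chain and ATP synthase. Members were chosen by gene symbol: nuclear genes named as subunits of complex I (Nduf followed by a, b, c, s or v and a number), complex II (Sdha to Sdhd), complex III (Uqcr), complex IV (Cox4 to Cox8) and complex V (Atp5), together with the 13 protein genes of mitochondrial DNA. Names ending in -ps were left out, which removed 3 rows. Of the 26332 genes in the count table, 101 were members, 13 encoded in the mitochondrion and 88 in the nucleus. The symbols do not catch every subunit: Cyc1 of complex III and Ndufab1 of complex I fall outside them and are given with the surrounding genes. 2 of the nuclear rows, Ndufa11b and Ndufs6b, are annotated as pseudogenes. A lower mitochondrial share of counts in the knockout was already known when the set was drawn up, so the values of the 13 mitochondrial genes are given as a description with no test.

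The samples were double negative 3 (DN3) thymocytes, an early T-cell stage that rearranges the β chain of the T-cell receptor, sorted from C57BL/6 mice. 2 mice carried a knockout of Tcf7, which encodes TCF-1, a transcription factor of the T-cell lineage (KO 1, male; KO 2, female), and 4 were wild type (WT 1, 2 and 3, female; WT 4, male). Each library came from 1 mouse, and the labels give no ages and do not say which part of Tcf7 was removed. The sort gate kept CD25+ cells that lacked CD44, CD3, TCRβ, CD8, NK1.1 and binding of a CD1d tetramer.

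The respiratory chain passes electrons from NADH (complex I) and succinate (complex II) through ubiquinone, complex III and cytochrome c to oxygen at complex IV, and complex V uses the resulting proton gradient to make ATP. All subunits of complex II are nuclear, whereas complexes I, III, IV and V are built from proteins of both genomes. The mitochondrial genes are transcribed from both strands of the circular genome as long precursors that are cut into single RNAs, and the nuclear subunit genes are transcribed one by one, many of them under NRF1 and the ETS factor GABP. The balance of the 2 sets of transcripts was therefore compared in every library.

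The KO libraries held 19589938 and 13673860 counts in KO 1 and KO 2, and the WT libraries held 23711513 to 41666797. Genes with any count numbered 13294 and 14384 in KO 1 and KO 2, against 15788 to 16013 in WT. Tcf7 stood at 1133 and 1022 CPM (counts scaled to a common library size) in KO 1 and KO 2, against 2094 to 2326 CPM in WT. All 12 DN3 markers, Tcf7 itself among them, were detected in every library. Their summed level, which includes Tcf7, was 11732 and 11017 CPM in KO 1 and KO 2, against 13924 to 14784 CPM in WT. 5 genes of double-positive thymocytes summed to 228 and 1800 CPM in KO 1 and KO 2, against 7.17 to 20.2 CPM in WT. 1 of them was listed at 0 in KO 1. 8 B-cell genes summed to 543 and 1074 CPM in KO 1 and KO 2, against 236 to 264 CPM in WT, most of it from Ighm. 8 myeloid markers summed to 5.48 and 9.55 CPM in KO 1 and KO 2, against 17.5 to 19.9 CPM in WT. The 2 KO libraries also differed from each other more than any WT pair: over all genes tested the median absolute log2 difference was 0.433 between KO 1 and KO 2 and 0.0729 to 0.136 between WT libraries. The part of these differences in the results below was not tested, and in sorted bulk samples fewer cells with a transcript and less of it per cell cannot be told apart.

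The transcripts of the 2 genomes stood in a different balance in KO cells. The 13 mitochondrial genes took 0.876% of all counts in KO 1 and 1.70% in KO 2, against 2.76%, 2.66%, 2.77% and 2.47% in WT 1 to 4. Both KO libraries lay below every WT library, and KO 1 lay furthest. The 95% Wilson intervals, which cover counting error only, were 0.872% to 0.880% in KO 1 and 1.69% to 1.71% in KO 2, and none of the WT intervals was wider than 0.0130 percentage points. The 88 nuclear genes took 1.22% and 1.07% of counts in KO 1 and KO 2, against 1.10%, 1.10%, 1.08% and 1.05% in WT 1 to 4. On this measure KO 1 lay above all WT libraries and KO 2 within them.

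The ratio of mitochondrial to nuclear member counts was 0.719 in KO 1 and 1.59 in KO 2, against 2.51, 2.42, 2.55 and 2.34 in WT 1 to 4 (mean 2.46 ± 0.0948, SD, n = 4). The KO ratios were 0.292 and 0.645 of the WT mean, so a WT library held 3.42 times the ratio of KO 1 and 1.55 times that of KO 2. Within the males the ratio was 0.719 in KO 1 and 2.34 in WT 4, and within the females it was 1.59 in KO 2 and 2.42 to 2.55 in WT. Both sexes showed the lower ratio in KO, with 1 KO mouse in each. The mean KO ratio was lower than the WT mean by 1.09 on the log2 scale, and between 1.77 and 0.63 when single libraries were left out. With 2 libraries against 4, an exact two-sided permutation test cannot go below p = 0.133, and none was applied.

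**Figure D1:**
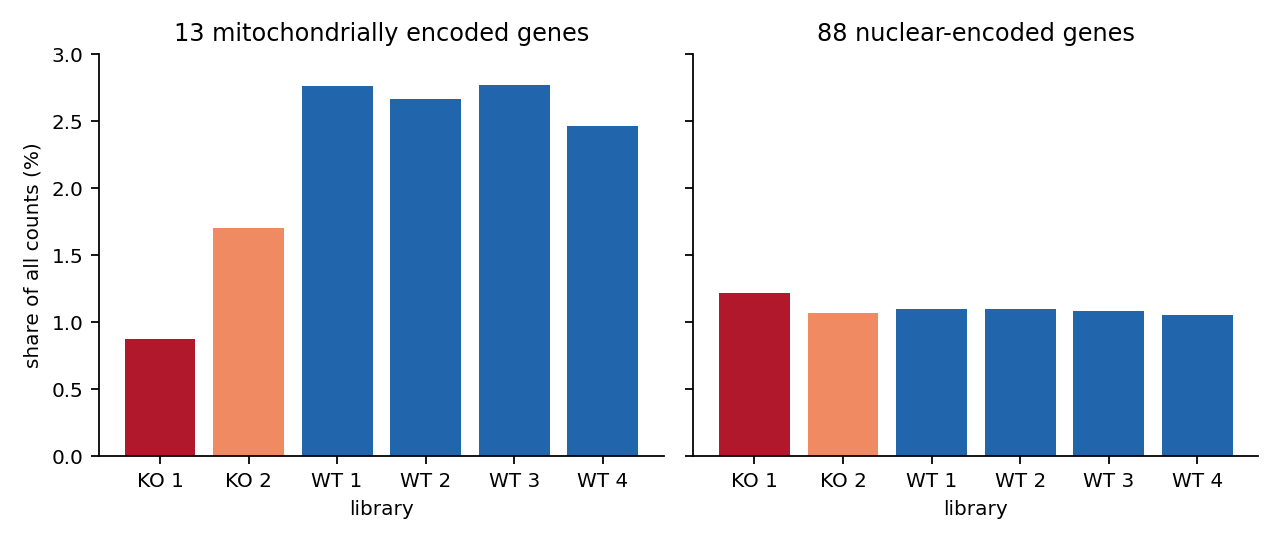
Share of all counts (percent, y axis) taken by the 13 mitochondrially encoded genes (left) and the 88 nuclear-encoded genes (right) in each library; each bar is 1 library, red and orange for KO and blue for WT. The mitochondrial share was 0.876% and 1.70% in KO 1 and KO 2, below the WT range of 2.47% to 2.77%, whereas the nuclear share was 1.22% and 1.07% in KO and 1.05% to 1.10% in WT.

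The lower level was shared by the genes of all 4 complexes that the mitochondrion contributes to. In each of the 13 genes KO 1 lay below all 4 WT libraries, and in 12 of the 13 KO 2 did so as well, with ATP8 as the exception; 46.5% of all genes tested lay below all WT libraries in KO 1 and 44.9% in KO 2. Both KO libraries lay below every WT library in 28.6% of all genes tested. Relative to the WT mean the 13 genes stood between 0.130 and 0.491 in KO 1 and between 0.296 and 0.715 in KO 2. The fitted log2 differences ran from -1.95 for ND4L to -0.79 for ND1, with a median of -1.37, while the median of all genes tested was -0.045.

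**Figure D2:**
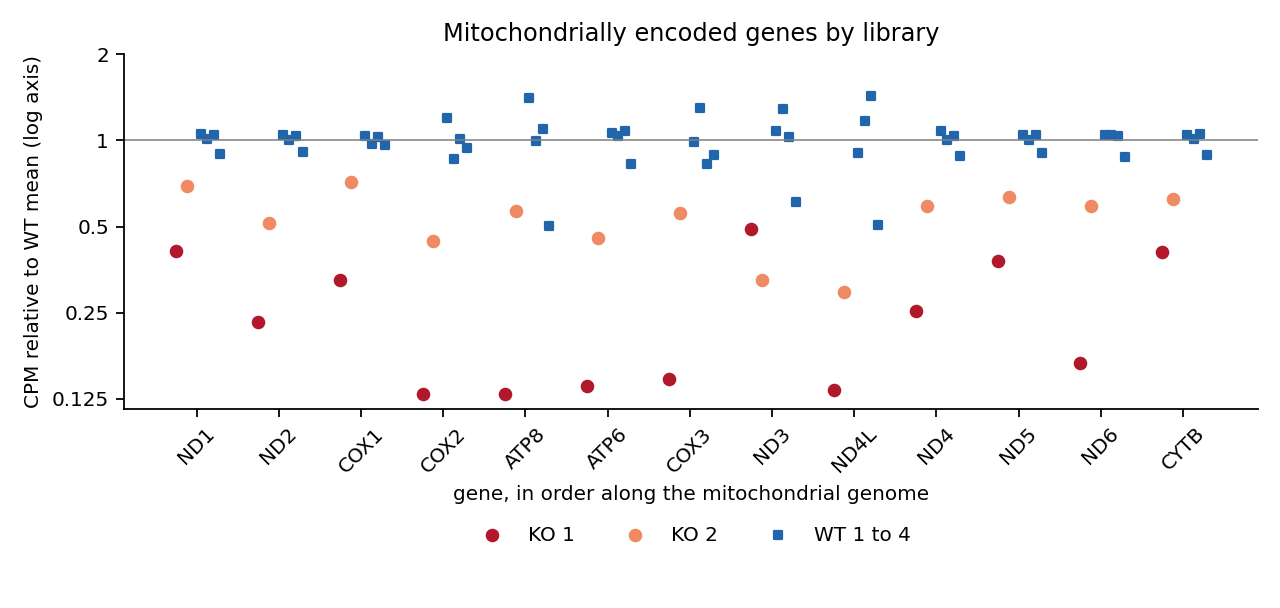
Level of each mitochondrially encoded gene relative to its WT mean (CPM ratio, log axis) in the order of the genes along the mitochondrial genome; circles are KO 1 (red) and KO 2 (orange) and blue squares the 4 WT libraries. KO 1 lies between 0.130 and 0.491 and KO 2 between 0.296 and 0.715 of the WT mean, and ND3 is the gene in which KO 2 is the lower of the pair.

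COX1, the catalytic subunit of complex IV (Entrez 17708, mitochondrial positions 5328 to 6872), was the most abundant member. It had 3776 and 8321 CPM in KO 1 and KO 2, against 12097, 11330, 11975 and 11182 CPM in WT 1 to 4. The groups did not overlap, and the fitted log2 difference was -0.91 (SE 0.238). The other mitochondrial subunits of the complex were much scarcer. COX2, which takes electrons from cytochrome c, had 42.1 and 143 CPM in KO 1 and KO 2, against 384, 277, 326 and 302 CPM in WT 1 to 4. COX3 had 44.6 and 169 CPM in KO 1 and KO 2, against 300, 392, 252 and 270 CPM in WT 1 to 4. For both, the KO 1 value was under 0.15 of the WT mean, a larger distance than that of COX1.

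CYTB, the cytochrome b of complex III (Entrez 17711, positions 14145 to 15288), had 1885 and 2867 CPM in KO 1 and KO 2, against 4833, 4654, 4870 and 4091 CPM in WT 1 to 4. Its log2 difference of -0.89 (SE 0.101) was the second smallest of the 13. Complex I holds 7 mitochondrial subunits, which form most of its proton-pumping membrane arm. ND1 had 1084 and 1819 CPM in KO 1 and KO 2, against 2763, 2669, 2746 and 2353 CPM in WT 1 to 4, and it had the smallest difference of all (log2 -0.79, SE 0.130). ND5 had 936 and 1575 CPM in KO 1 and KO 2, against 2584, 2491, 2584 and 2244 CPM in WT 1 to 4. In KO 1 these 3 transcripts stood at 0.378 to 0.412 of the WT mean, closer to WT than any other member of the 13 except ND3.

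ND2 had 446 and 990 CPM in KO 1 and KO 2, against 2002, 1925, 1988 and 1752 CPM in WT 1 to 4 (log2 -1.37, SE 0.226). ND4 had 419 and 972 CPM in KO 1 and KO 2, against 1782, 1652, 1716 and 1457 CPM in WT 1 to 4 (log2 -1.19, SE 0.225). Relative to the WT mean ND2 was at 0.233 in KO 1 and 0.516 in KO 2, and ND4 at 0.254 and 0.588. ND6, the one protein gene on the other strand of the mitochondrial genome, had 79.5 and 281 CPM in KO 1 and KO 2, against 500, 497, 492 and 419 CPM in WT 1 to 4 (log2 -1.40, SE 0.353). Strand is not recorded by the library kit, so reads from the opposite strand across ND6 may count toward it.

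The shortest genes had few counts and the widest spread among WT libraries. ND3 had 9.67 and 6.42 CPM in KO 1 and KO 2, against 21.2, 25.3, 20.3 and 11.9 CPM in WT 1 to 4. ND4L had 2.71 and 5.97 CPM in KO 1 and KO 2, against 18.2, 23.5, 28.8 and 10.2 CPM in WT 1 to 4. ND3 was the only member of the 13 with a lower value in KO 2 than in KO 1. For complex V, ATP6, part of the proton channel, had 50.4 and 166 CPM in KO 1 and KO 2, against 385, 378, 393 and 302 CPM in WT 1 to 4 (log2 -1.73, SE 0.314). ATP8 had 9.31 and 40.3 CPM in KO 1 and KO 2, against 100.5, 70.9, 78.3 and 35.8 CPM in WT 1 to 4, so that KO 2 lay above WT 4. ATP8 overlaps ATP6, and ND4L overlaps ND4, so their reads cannot be fully separated.

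The 13 genes therefore did not stand in the same proportions in the 2 genotypes. COX1 made up 43.0% and 48.0% of the mitochondrial member counts in KO 1 and KO 2, against 44.0% ± 1.24 in WT (SD, n = 4). CYTB made up 21.5% and 16.5% in KO 1 and KO 2, against 17.4% ± 0.444 in WT, and ND2 5.08% and 5.70%, against 7.23% ± 0.0531 in WT. COX2 made up 0.479% and 0.824% in KO 1 and KO 2, against 1.21% ± 0.139 in WT. CYTB, ND1, ND5 and ND3 took a larger share in KO 1 than in any WT library, and ND2, ND4, ND6, ATP6, COX2 and ND4L a smaller share in both KO libraries.

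Some of these rows share sequence with the nucleus. GENCODE transcripts were searched for nuclear copies. For COX2, COX3, ATP6, ND3 and ND4L a nuclear pseudogene matched at least 90% of the gene at 99% identity or more. These pseudogenes lie in 1 block on chromosome 1 between 24612407 and 24615565 (mm10). Reads that match both places may be lost or split, depending on a counting setting that is not given in the sources used here. Those 5 genes stood at 56.6 to 535 CPM per kilobase in WT and made up 3.72% of the mitochondrial member counts, and the other 8 stood at 350 to 7538 CPM per kilobase. Summed, the 5 genes with such a copy were at 0.145 and 0.475 of the WT mean in KO 1 and KO 2. The 8 that did not meet these bounds were at 0.339 and 0.662. Of those 8, only ND1 had no nuclear match. ND4 matched at 100% identity over 63.6% of its length, and COX1 at 97.6% over all of it. The lower level was thus measured in both classes, but the second class is not free of nuclear copies.

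The mitochondrial ribosomal RNAs, which are not members, were lower as well in KO 1. mt-Rnr2 (16S) had 107 and 500 CPM in KO 1 and KO 2, against 1085 to 1256 CPM in WT. mt-Rnr1 (12S) had 64.1 and 337 CPM in KO 1 and KO 2, against 291 to 345 CPM in WT, so that KO 2 lay within the WT range. Together the 2 rRNAs took 0.0171% and 0.0820% of counts in KO 1 and KO 2, against 0.142% to 0.159% in WT.

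The nuclear members did not show the lower level. Of the 88, 82 passed the filter on low counts and 6 did not (Cox4i2, Cox7b2, Cox8b, Cox8c, Ndufa4l2 and Uqcr11), and 4 of them rose in KO by edgeR's quasi-likelihood test (Benjamini-Hochberg adjusted p under 0.05 over 13294 genes) while 0 fell. That is 4.88% of the nuclear members tested, against 30.7% of all genes (14.1% higher and 16.5% lower). At an unadjusted edgeR p under 0.05 there were 14 higher and 4 lower, where 5828 of the 13294 genes tested passed in either direction. DESeq2 called 11 higher and 3 lower (against 18.6% and 21.0% of all genes). With a separate weight for each genotype limma-voom called 0 in both directions (against 7.33% and 3.63%). The log2 changes of the 82 had a median of 0.14 and were under 0.5 in size for 72 of them (87.8%, against 59.1% of all genes). Both KO libraries lay above every WT library for 23 of the 82 and below for 7, against 22.9% and 28.6% of all genes. The counts depended on single libraries, with 0 higher and 0 lower without WT 1, WT 2 or WT 3. In those fits 881 to 896 of all genes were called higher and 784 to 847 lower. Fits without a KO library or without WT 4, where the genotype rests on 1 KO mouse, raised the member counts in both directions. The median was 0.00 without KO 1 and 0.35 without KO 2.

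The 4 that rose belong to complexes I, III and IV. Ndufs4, an accessory subunit of complex I near its NADH-binding end (Entrez 17993, chromosome 13, 114287795 to 114388094), had 77.9 and 73.6 CPM in KO 1 and KO 2, against 57.4, 60.7, 54.3 and 56.7 CPM in WT 1 to 4. Its log2 change was 0.40 (SE 0.0819, adjusted p = 0.0198, edgeR). Uqcrh, the hinge protein of complex III (Entrez 66576, chromosome 4, 116066965 to 116075070), had 209 and 185 CPM in KO 1 and KO 2, against 159, 159, 145 and 159 CPM in WT 1 to 4. Its log2 change was 0.31 (SE 0.0766, adjusted p = 0.0330, edgeR). In both genes every KO library exceeded every WT library, by less than 1.5-fold.

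Cox4i1, the common isoform of the largest nuclear subunit of complex IV (Entrez 12857, chromosome 8, 120668225 to 120674209), had 380 and 360 CPM in KO 1 and KO 2, against 299, 294, 286 and 291 CPM in WT 1 to 4. Its log2 change was 0.33 (SE 0.0633, adjusted p = 0.0160, edgeR). Cox6a1, a regulatory subunit of the same complex (Entrez 12861, chromosome 5, 115345652 to 115348958), had 228 and 165 CPM in KO 1 and KO 2, against 134, 137, 142 and 127 CPM in WT 1 to 4 (log2 0.50, SE 0.140, adjusted p = 0.0478, edgeR). The groups did not overlap, and KO 1 was well above KO 2 in Cox6a1. The 4 calls were lost when WT 1, WT 2 or WT 3 was left out (adjusted p 0.0595 to 0.117, edgeR) and with limma-voom (0.0648 to 0.319), and were kept when either KO library or WT 4 was left out.

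**Figure D3:**
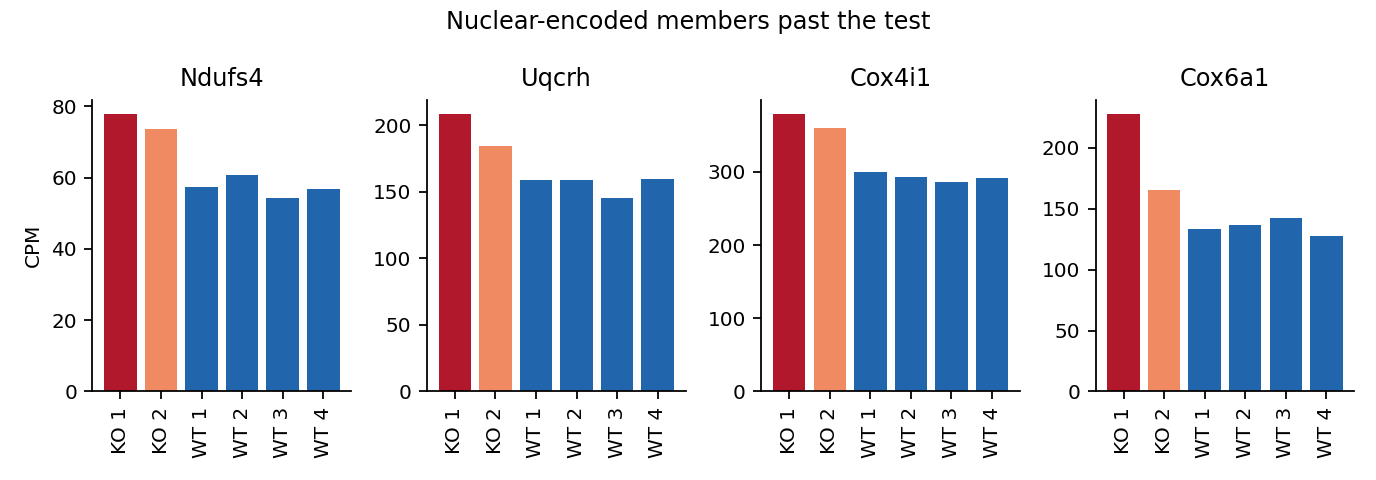
CPM (y axis from 0, separate scale for each gene) of the 4 nuclear members past the test in each library; bars are single libraries, KO in red and orange and WT in blue. In each gene both KO bars stand above all 4 WT bars, by the largest distance for Cox6a1 in KO 1 (228 CPM, against 127 to 142 CPM in WT).

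The promoters of these 4 genes were looked up because nuclear respiratory genes are known for shared promoter elements. The RefSeq table (GRCm38.p6) held a promoter for 69 of the 88 nuclear members, including 3 of the 4 that rose, with no entry for Cox4i1. The 250 bases before the transcription start are printed 5′ to 3′ on the gene's strand, with matches to the searched motifs in capitals. They are at chr13:114388095-114388344 (Ndufs4), chr4:116075071-116075320 (Uqcrh) and chr5:115348959-115349208 (Cox6a1), all on the minus strand.
Ndufs4: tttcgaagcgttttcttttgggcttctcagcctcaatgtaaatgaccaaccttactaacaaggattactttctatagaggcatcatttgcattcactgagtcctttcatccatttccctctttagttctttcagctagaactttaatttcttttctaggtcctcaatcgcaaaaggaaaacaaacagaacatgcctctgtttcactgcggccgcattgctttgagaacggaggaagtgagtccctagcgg
Uqcrh: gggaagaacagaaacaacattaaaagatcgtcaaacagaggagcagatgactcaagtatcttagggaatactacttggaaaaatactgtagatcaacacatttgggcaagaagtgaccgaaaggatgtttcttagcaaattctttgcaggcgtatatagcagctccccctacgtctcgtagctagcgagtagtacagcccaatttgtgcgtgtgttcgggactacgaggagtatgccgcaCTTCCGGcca
Cox6a1: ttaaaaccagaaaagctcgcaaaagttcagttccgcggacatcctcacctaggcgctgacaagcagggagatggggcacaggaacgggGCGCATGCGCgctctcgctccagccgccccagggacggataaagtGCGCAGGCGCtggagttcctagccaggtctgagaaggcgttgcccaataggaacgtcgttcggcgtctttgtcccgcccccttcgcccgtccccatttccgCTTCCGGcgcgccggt
Cox6a1 held the palindromic NRF1 motif, the first run of capitals in its line, beginning 162 bases before the start. It also held a match to a looser NRF1 motif, the same with any base at its 5th position, on the opposite strand at 117 bases, and an ETS motif (CCGGAAG, here on the opposite strand) at 16 bases. Uqcrh held an ETS motif at 10 bases, and Ndufs4 held no match to any motif searched.

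Shares were counted on both strands of each whole promoter entry, which runs past the transcription start and so beyond the stretch printed above. The looser NRF1 motif was in 24.6% of the 69 nuclear members with a promoter, against 11.7% of tested genes and 5.19% of all promoters. The exact NRF1 motif, which the looser one contains, was in 7.25% of members, against 2.40% and 1.07%. The ETS motif was in 24.6% of members, against 20.5% and 9.93%, and a YY1 motif (AAGATGGC) in 14.5%, against 5.35% and 3.19%. The TCF/LEF motif (CTTTGAT or CTTTGAA), the kind of site that TCF-1 binds, was in 4.35% of members, against 7.07% of tested genes and 9.88% of all. These are shares of letter matches in a short window and say nothing of binding.

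By complex, the summed nuclear members of complex IV were 1729 and 1616 CPM in KO 1 and KO 2, against 1394, 1401, 1353 and 1347 CPM in WT 1 to 4. That is 1.26 and 1.18 times the WT mean, and it was the only complex whose nuclear sum lay above every WT library in both KO libraries. Complex II, with no mitochondrial subunit, was the one complex whose nuclear sum was below every WT library in both, at 667 and 672 CPM in KO 1 and KO 2, against 764, 729, 724 and 705 CPM in WT 1 to 4. For complex I the sum was 1.21 and 0.991 of the WT mean in KO 1 and KO 2, for complex III 1.11 and 1.02, and for complex V 1.10 and 0.996. No test was run on these sums. Set beside them, the mitochondrial subunits of complexes I, III, IV and V summed to 0.324, 0.409, 0.315 and 0.137 of the WT mean in KO 1 and to 0.614, 0.622, 0.703 and 0.473 in KO 2.

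**Figure D4:**
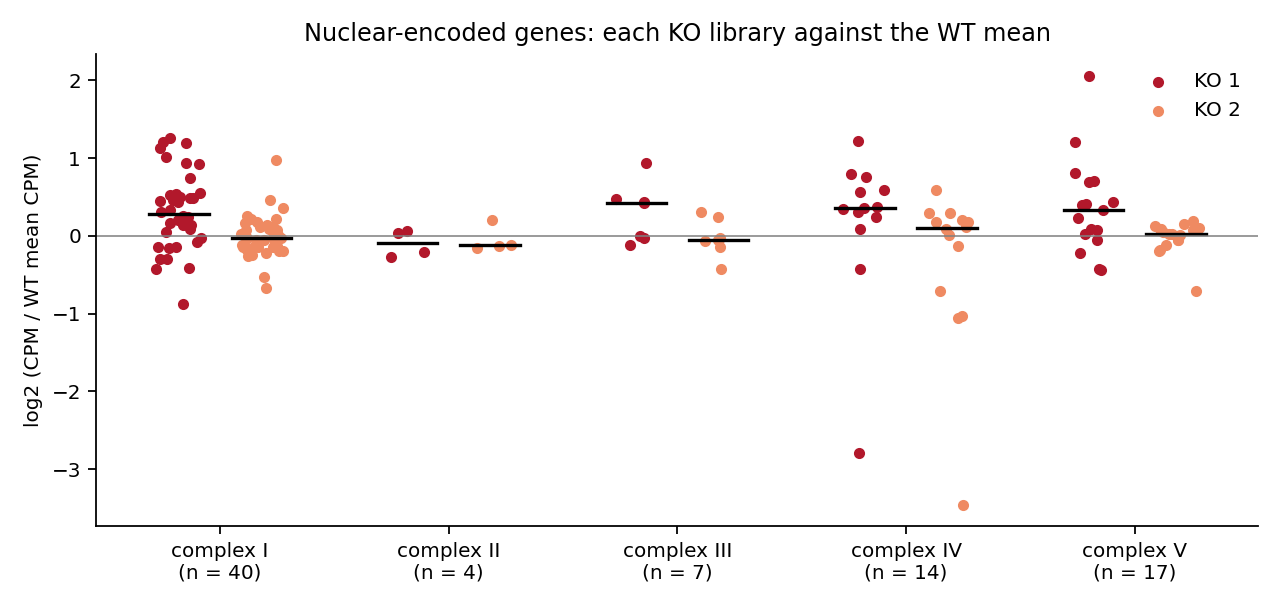
Log2 of CPM over the WT mean (y axis) for the tested nuclear-encoded genes of each complex in KO 1 (red) and KO 2 (orange); each point is 1 gene and black bars are medians. The KO 1 medians lie at 0.28, -0.09, 0.42, 0.36 and 0.33 for complexes I to V and the KO 2 medians between -0.12 and 0.10; Cox6a2 had no count in KO 1 and is not drawn there.

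Among the nuclear genes of complex I, 30 of the 40 tested were above all WT libraries in KO 1 and 14 in KO 2, against 40.5% and 38.1% of all genes. Ndufa4, the member of this name with the highest level per length, had 195 and 124 CPM in KO 1 and KO 2, against 119, 117, 120 and 112 CPM in WT 1 to 4 (log2 0.37, SE 0.174, adjusted p = 0.166, edgeR). Its protein is named for complex I but is found in complex IV. Ndufb2, an accessory subunit of the membrane arm, showed the lowest log2 value of complex I at -0.38 (adjusted p = 0.0526, edgeR), with 39.2 and 30.3 CPM in KO 1 and KO 2, against 43.1 to 44.0 CPM in WT. The core subunits Ndufs1, Ndufs3, Ndufs7, Ndufs8, Ndufv1 and Ndufv2, which belong to the electron path, had log2 values of -0.25 to 0.07, and none of these passed the test.

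In complex II, Sdha, the flavoprotein that oxidises succinate, had 338 and 377 CPM in KO 1 and KO 2, against 428, 403, 407 and 400 CPM in WT 1 to 4 (log2 -0.18, adjusted p = 0.104, edgeR). Sdhb, its iron-sulfur partner, had 177 and 159 CPM in KO 1 and KO 2, against 181, 177, 175 and 159 CPM in WT 1 to 4 (log2 -0.04, adjusted p = 0.800). Sdha was lower in both KO libraries, and Sdhb overlapped with WT. In complex III, the core proteins Uqcrc1 and Uqcrc2 had log2 values of -0.04 and -0.07, and the Rieske protein Uqcrfs1 had 158 and 195 CPM in KO 1 and KO 2, against 166, 159, 158 and 150 CPM in WT 1 to 4 (adjusted p = 0.0986). In complex V, Atp5b, the catalytic β subunit and the nuclear member with the highest level per length, had 1959 and 1779 CPM in KO 1 and KO 2, against 1991, 1935, 1953 and 1846 CPM in WT 1 to 4 (log2 -0.05, SE 0.0747, adjusted p = 0.657). None of the 17 complex V genes passed the test. Atp5a1, the α subunit, had a log2 value of 0.10 and Atp5d, the δ subunit, 0.01.

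Several complex IV and V subunits exist as paralogous isoforms, some of them tied to muscle, testis or lung. Their balance is given as shares of the summed CPM per kilobase of a set. Cox4i1 made up 99.9% or more of the Cox4i pair in each library, Cox8a 99.9% or more of the Cox8 set, and Cox6a1 100% and 99.8% of the Cox6a pair in KO 1 and KO 2, against 99.5% ± 0.177 in WT (SD, n = 4). The Cox6b pair was more mixed, with Cox6b2 at 6.58% and 0.826% in KO 1 and KO 2, against 9.33% ± 0.816 in WT. Cox7b2 and Cox8c had 0 counts in all 6 libraries, and Cox4i2, Cox8b and Ndufa4l2 were too low to test. Among the c-ring genes of complex V, Atp5g3 made up 94.9% and 96.4% in KO 1 and KO 2, against 94.5% ± 0.229 in WT. Atp5g1 and Atp5g2 share stretches of 411 and 645 bases with another annotated gene, at 99.8% and 100% identity, and Atp5g3 has no such stretch. Reads that match both places may be lost or split, so the c-ring shares are uncertain, and this effect was not tested. Cox4i1 and Cox7a2l also share a stretch with another gene, over 154 and 201 bases at 100% identity.

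Cox6b2, Cox7a2l and Cox7c of complex IV were among the members that lay on opposite sides of WT in the 2 KO mice. Cox6c of the same complex did so too, with 118 and 73.5 CPM in KO 1 and KO 2, against 78.5 to 83.0 CPM in WT. So did members of other complexes, such as Ndufa2 and Uqcrb. Cox6b2, known as the testis form of Cox6b1, had 15.6 and 1.19 CPM in KO 1 and KO 2, against 12.3, 13.4, 11.8 and 14.9 CPM in WT 1 to 4. KO 1 was just above the WT libraries and KO 2 far below, and the genotype test was not passed (log2 -1.56, SE 0.844, adjusted p = 0.218, edgeR). Cox7a2l, grouped here with the Cox7a isoforms, had 168 and 341 CPM in KO 1 and KO 2, against 227, 226, 210 and 244 CPM in WT 1 to 4. Here KO 1 lay below all WT libraries and KO 2 above them (log2 0.19, SE 0.249, adjusted p = 0.609). Its share of the Cox7a set was 68.0% and 84.6% in KO 1 and KO 2, against 80.3% ± 1.68 in WT, with Cox7a2 making up nearly all of the rest. Cox7c, a small subunit listed at a low level, had 9.42 and 2.46 CPM in KO 1 and KO 2, against 4.20, 3.47, 3.68 and 4.81 CPM in WT 1 to 4 (log2 0.10, SE 0.425, adjusted p = 0.880, edgeR). The muscle forms Cox7a1 and Cox6a2 were below WT in both KO libraries at very low levels, 0.154 and 0.522 CPM for Cox7a1 in KO 1 and KO 2, against 0.869 to 1.27 CPM in WT (adjusted p = 0.0842).

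The 2 KO libraries gave different pictures of the nuclear set as a whole. The median log2 difference from the WT mean was 0.31 in KO 1 and 0.00 in KO 2, and 57 members lay above every WT library in KO 1 and 31 in KO 2, against 40.5% and 38.1% of all genes. KO 1 exceeded KO 2 in 62 of the 82 tested members, and an interaction of genotype and sex, which with 1 KO mouse of each sex cannot be told apart from the difference between those mice, passed the edgeR test in 60, against 54.7% of all genes. The median absolute log2 difference between KO 1 and KO 2 was 0.375 over these members, against 0.0424 to 0.0857 between WT libraries. Atp5k, a small membrane subunit of complex V, had 102 and 21.6 CPM in KO 1 and KO 2, against 25.2, 29.4, 24.8 and 18.8 CPM in WT 1 to 4, and had the largest fitted value of the nuclear set (log2 0.93, SE 0.674, adjusted p = 0.343). Its KO 1 value stood alone.

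Gene length moved with the difference in KO 1. The nuclear members are short, with a median length of 644 bases against 2702 for all genes tested, and 72.0% of them, against 11.2% of all, have 1000 bases or fewer. Among members with a mean of at least 10 CPM, the median log2 difference from the WT mean was 0.50 in KO 1 and -0.03 in KO 2 for the 29 genes of up to 600 bases. It was 0.20 and 0.02 for the 19 genes of over 600 to 1000 bases, and 0.03 and -0.01 for the 23 longer ones. All genes of up to 600 bases had medians of 0.33 in KO 1 and 0.04 in KO 2 (n = 234), and those over 1000 bases -0.03 and -0.02. Short genes in general were thus higher in KO 1 and not in KO 2, and Spearman's rho of length with the log2 difference over the 82 members was -0.44 for KO 1 and 0.04 for KO 2, as a description across genes that share their libraries. The part of length in the nuclear values was not tested directly. In a fit with a length correction added after the values were seen, the 4 calls were kept and 6 nuclear members were called higher and 1 lower (against 15.3% and 15.8% of all genes), while the mitochondrial median was within 0.1 of its value.

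**Figure D5:**
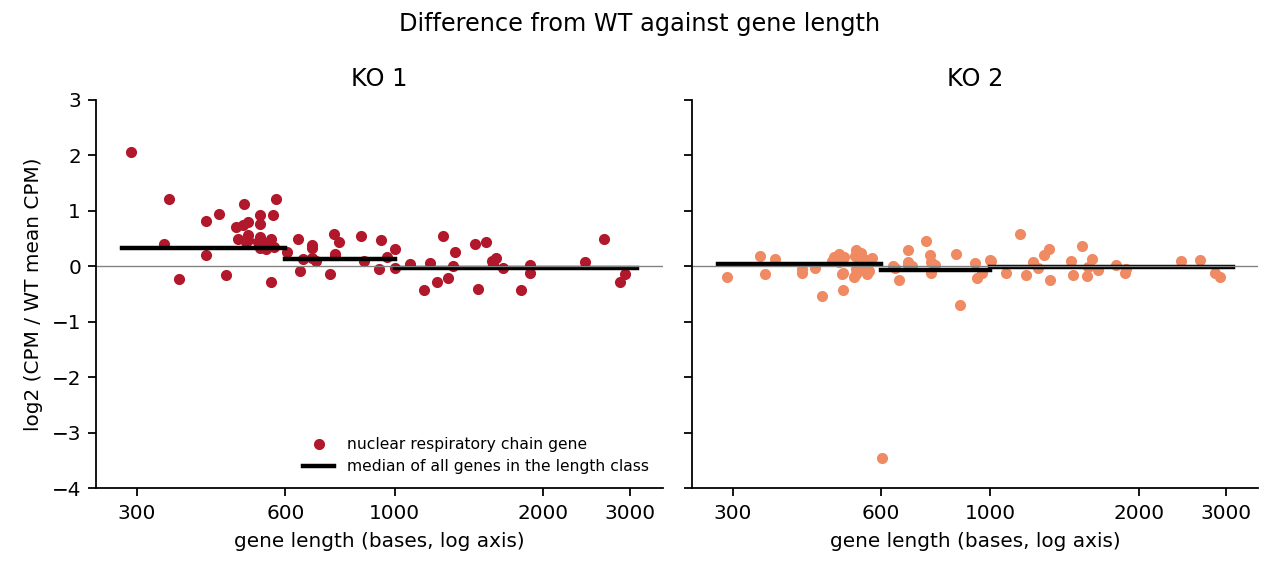
Log2 of CPM over the WT mean (y axis) against gene length (bases, log axis) for nuclear-encoded members with a mean of at least 10 CPM, in KO 1 (left) and KO 2 (right); points are genes and black lines are medians of all tested genes of up to 600, over 600 to 1000 and over 1000 bases. In KO 1 the shortest class lies highest (members 0.50, all genes 0.33), and in KO 2 the classes lie within 0.1 of 0; the lowest point in KO 2 is Cox6b2.

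On a scale of CPM per kilobase, the tested nuclear members ran from 1.17 (Cox6a2) to 1028 (Atp5b) in WT, with a median of 111 in KO and 94.2 in WT. The mitochondrial genes had a median of 347 in KO and 919 in WT. Very low levels were listed for Uqcr11 of complex III, Ndufb4 and Ndufs5 of complex I, Cox7c of complex IV and Atp5l and Atp5g2 of complex V, between 0.0743 and 13.3 CPM per kilobase in WT. Each of them shares a stretch of at least 150 bases at 98% identity or more with another annotated gene, as do 21 of the 85 nuclear members with a transcript in GENCODE. Sdhd (12.2), Cox7a1 (2.91), Cox6a2 (1.17) and Ndufa11b (4.58 CPM per kilobase in WT) lay in the same range without such a stretch. Cox4i1 has such a stretch and stood at 431 CPM per kilobase in WT. The 21 had a median of 40.5 CPM per kilobase in WT, against 107 for the 64 without such a stretch, so their levels are uncertain. Median log2 changes were 0.07 with such a stretch and 0.15 without.

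The genes that build and supply the chain were counted in 9 lists, chosen with earlier results of these data known. Of 238 genes tested, 6 rose (2.52%, against 14.1% of all genes) and 37 fell (15.5%, against 16.5%). With limma-voom 3 were higher (Polg, Dlst and Mrpl52, the last not called with edgeR) and 2 lower (Pink1 and Hspa9), so the other edgeR calls were not shared by that test, and with 1 library left out the counts ran from 1 to 63 higher and from 6 to 103 lower, lowest without WT 1. The genes named from these lists are those with the largest changes among the calls, up to 4 a list, and other genes that were named after their values were seen.

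Among 45 assembly factors 8 fell and 0 rose (17.8% lower, against 16.5% of all genes). Ndufaf4, needed for complex I assembly, had 29.7 and 26.9 CPM in KO 1 and KO 2, against 52.4, 50.8, 53.1 and 46.3 CPM in WT 1 to 4 (log2 -0.82, SE 0.104, adjusted p = 0.00463, edgeR). Timmdc1, another complex I factor, fell by 0.57 on the log2 scale, Sdhaf4, which helps assemble complex II, by 0.97, and Lyrm7, which carries the Rieske protein to complex III, by 0.86. The 4 others that fell were Sdhaf2, Ttc19, Cox14 and Pet100. None of these 8 calls held with limma-voom.

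Of 20 genes of mitochondrial DNA transcription and replication 1 rose and 6 fell (35% called, against 30.7% of all genes). Polg, the catalytic subunit of the mitochondrial DNA polymerase, had 85.0 and 80.8 CPM in KO 1 and KO 2, against 32.8, 31.3, 35.4 and 27.7 CPM in WT 1 to 4 (log2 1.42, SE 0.108, adjusted p = 0.00111 with edgeR and 0.000497 with limma-voom). It had the clearest difference of the list, in a direction opposite to the mitochondrial transcripts. Tefm, an elongation factor of mitochondrial transcription, had 17.3 and 16.2 CPM in KO 1 and KO 2, against 38.8, 38.1, 38.5 and 32.1 CPM in WT 1 to 4 (log2 -1.10, SE 0.118, adjusted p = 0.00286, edgeR). Top1mt, the mitochondrial topoisomerase, fell by 1.95 on the log2 scale and Tk2, a thymidine kinase of the organelle, by 0.82. Tfb2m, the initiation factor, Tfb1m and the helicase gene Twnk also fell, by 0.56, 0.59 and 0.51. None of these 6 held with limma-voom (adjusted p 0.0770 to 0.531). Tfam, which packages mitochondrial DNA and starts transcription, had 90.3 and 99.9 CPM in KO 1 and KO 2, against 108, 104, 106 and 98.4 CPM in WT 1 to 4 (adjusted p = 0.288), and the RNA polymerase gene Polrmt had log2 -0.07 (adjusted p = 0.582).

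In the list of mitochondrial RNA processing and stability 4 of 23 genes fell and 0 rose (17.4% lower, against 16.5% of all genes). They were Ptcd2 (log2 -0.69), the oligoribonuclease gene Rexo2 (-0.48), Fastkd5 (-0.46) and Lrpprc (-0.39), whose product binds and stabilises mitochondrial messenger RNAs. Lrpprc had 146 and 126 CPM in KO 1 and KO 2, against 184, 181, 177 and 168 CPM in WT 1 to 4 (SE 0.0936, adjusted p = 0.0307, edgeR). Of 77 mitochondrial ribosome genes 9 fell and 0 rose (11.7% lower, against 16.5% of all genes). Mrps6 (log2 -0.69), Mrpl17 (-0.54), Mrpl38 (-0.47) and Mrps34 (-0.47) showed the largest drops.

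Of 13 tested nuclear regulators of the chain, 3 rose and 0 fell (23.1% higher, against 14.1% of all genes). Hif1a, the oxygen-sensing factor, had 208 and 316 CPM in KO 1 and KO 2, against 198, 192, 193 and 169 CPM in WT 1 to 4 (log2 0.54, SE 0.100, adjusted p = 0.0150, edgeR). Gabpb1, a subunit of the ETS factor GABP, rose by 0.31 on the log2 scale. Tfeb, a regulator of lysosome genes, had 1.23 and 9.03 CPM in KO 1 and KO 2, against 0.410, 0.668, 0.422 and 0.387 CPM in WT 1 to 4, mostly a KO 2 value. Nrf1 (107 and 90.3 CPM in KO 1 and KO 2, against 83.7 to 90.5 CPM in WT, adjusted p = 0.231) and Gabpa did not pass the test. The coactivator gene Ppargc1a had 0 counts in both KO libraries and 0.0703 to 0.193 CPM in WT, too low to test.

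Of 17 genes of the tricarboxylic acid cycle and pyruvate dehydrogenase, which deliver NADH and succinate, 2 rose and 4 fell. That is 35.3% called, against 30.7% of all genes. Dlst, a core enzyme of the 2-oxoglutarate dehydrogenase complex, had 344 and 204 CPM in KO 1 and KO 2, against 156, 154, 153 and 150 CPM in WT 1 to 4 (log2 0.73, SE 0.182, adjusted p = 0.0355 with edgeR and 0.0108 with limma-voom), and Pdha1 rose by 0.28. Of the succinate-CoA ligase genes, Suclg2 and Suclg1 fell by 0.54 and 0.31. Sucla2, another gene of that enzyme, did not pass the test (log2 0.06, adjusted p = 0.557, edgeR). Idh3a fell by 0.47. Of 16 genes for ubiquinone synthesis and cytochrome c, 2 fell (12.5%, against 16.5% of all genes), Coq8b by 0.62 and Coq2 by 0.49. Cyc1, the cytochrome c1 subunit of complex III, had 151 and 131 CPM in KO 1 and KO 2, against 166, 166, 166 and 160 CPM in WT 1 to 4 (adjusted p = 0.0823). The cytochrome c gene Cycs had 7.78 and 11.5 CPM in KO 1 and KO 2, against 12.7 to 14.0 CPM in WT (adjusted p = 0.123).

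Of 10 genes of ATP export and coupling 1 fell (10%, against 16.5% of all genes). This was Slc25a31, which had 0 counts in both KO libraries and 0.141 to 0.668 CPM in WT. Ndufab1, the acyl carrier protein that is also a complex I subunit, had 10.3 and 3.66 CPM in KO 1 and KO 2, against 3.98 to 5.68 CPM in WT (adjusted p = 0.664). Of 17 genes of mitochondrial dynamics and turnover 3 fell and 0 rose (17.65% lower, against 16.5% of all genes). Pink1, a kinase that marks damaged mitochondria, had 114 and 134 CPM in KO 1 and KO 2, against 193, 186, 182 and 202 CPM in WT 1 to 4 (log2 -0.61, SE 0.0969, adjusted p = 0.00975 with edgeR and 0.0300 with limma-voom). Hspa9, the chaperone of the mitochondrial matrix, fell by 0.53 (adjusted p = 0.00993 with edgeR and 0.0460 with limma-voom), and Phb by 0.66.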

How the data were processed

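RNA of sorted DN3 thymocytes from 2 KO and 4 WT mice was amplified with a SMART-Seq v4 kit, which does not mark strand, and sequenced in paired ends, per the labels' protocols. The authors deposited unnormalized read counts for each Entrez identifier, and the submitters' processing notes name featureCounts and mm10. Not given in the sources used here are the aligner, its settings, tool versions, annotation and strandedness. All values of the series table and the 6 single-library tables were equal. Symbols came from a RefSeq gene table (GRCm38.p6, the mm10 primary assembly): 25275 identifiers matched, 18 were named from GENCODE and 1039 had no symbol.

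The test was edgeR 4.0.16 in R 4.3.3, run with filterByExpr by genotype at a count minimum of 10, TMM scaling, robust quasi-likelihood F-test, sex as an additive term, 3 residual degrees of freedom, and Benjamini-Hochberg adjustment over 13294 genes at 0.05. CPM values use the TMM-scaled library sizes, and shares of counts are unscaled. Depth was 13673860 to 41666797 counts, so 3 counts correspond to 0.0720 to 0.219 CPM, and intervals cover counting error only. A second model added genotype by sex. The alternatives were other scalings, no filter, no sex term, a replicate block, DESeq2 1.42.0, limma-voom (limma 3.58.1) with weights per genotype, and leaving out each library; a length correction was added after the data were seen. The scripts were tested on simulated data.

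The members, lists and tests were chosen with earlier results of these data known. Named genes are the 13 mitochondrial genes, the called nuclear members, the highest nuclear member per length of each complex, the isoform sets and up to 4 called genes a list; other genes were named after their values were seen. The planned ranking of genes by likeness to the mitochondrial level is not given, because the libraries fall into 2 clusters by genotype. No protein sequences were used here. A few genes are not reported here.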

Additional observations from a re-analysis of the deposited data

Results flagged for a closer look

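In 6 cases 1 WT library stood far from the other 3, by a test that flags about 1 group in 20 by chance. WT 4 was low for ATP6, at 302.1 CPM against 377.6 to 392.8 CPM in the other WT libraries, and for ND6, at 418.8 CPM against 492.2 to 499.9 CPM. WT 3 was low for Uqcrh, at 145.2 CPM against 158.7 to 159.3 CPM. WT 4 was also low for Tefm, at 32.08 CPM against 38.15 to 38.80 CPM, and for Mrps6, at 40.27 CPM against 43.53 to 43.66 CPM. WT 2 was high for Tfeb, at 0.6685 CPM against 0.3865 to 0.4217 CPM. WT 4 is the one WT male.

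The KO effect differed between the males (KO 1 against WT 4) and the females (KO 2 against WT 1 to 3) in an edgeR interaction term for 13 named nuclear members, where 54.7% of all genes tested passed the same test. With 1 KO mouse of each sex, sex and the difference between the 2 KO mice cannot be told apart. A negative value means that the log2 difference was lower in the males.

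The interaction on the log2 scale was 3.45 for Cox6b2 (adjusted p = 5.81e-11), -1.16 for Cox7a2l (7.69e-15), 0.76 for Atp5g1 (0.00164), 0.75 for Ndufa4 (3.04e-10), 0.63 for Cox6b1 (3.76e-08), 0.58 for Cox6a1 (1.19e-07) and 0.51 for Cox7a2 (0.00135), all with edgeR. Smaller values were found for Atp5g3 (0.41, adjusted p = 1.17e-05), Cox8a (0.31, 0.000645), Sdhb (0.31, 0.000835), Cox7b (0.28, 0.00367) and Atp5b (0.23, 0.00143). For Cox6a2 the fitted value was -7.05 (adjusted p = 0.0161, edgeR), on 0 counts in KO 1 and 5 in KO 2. All but Cox7a2l and Cox6a2 had the larger value in KO 1.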

How the results depend on the processing

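For the 59 named genes that passed the filter, 531 values came from settings other than leaving out a library. Of these, 449 kept their direction and side of the threshold, 63 lost a call, 3 gained one, 16 moved and 0 reversed. The 59 include the 13 mitochondrial genes, whose lower level was known beforehand, and many genes that were named because they were called. These numbers describe the settings and are no support for the calls. Over all genes (1878 higher, 2198 lower), limma-voom called 975 and 482 and the replicate block 413 and 335. For the nuclear members (4 higher, 0 lower), the replicate block gave 0 and 0, limma-voom 0 and 0, DESeq2 11 and 3, library totals 3 and 2, scaling without the mitochondrial genes 5 and 1, and the length correction 6 and 1. For the surrounding lists (6 higher, 37 lower), the replicate block gave 1 and 1, limma-voom 3 and 2, and DESeq2 16 and 50. The nuclear median log2 change of 0.14 was 0.17 with limma-voom and 0.10 with the length correction, and the mitochondrial median of -1.37 was -1.56 with the replicate block. Deviations of same-numbered libraries from their group means had r = -0.110 and 0.033 over 2 pairs. With 2 KO libraries the KO deviations mirror each other, so this cannot show whether the numbers pair the mice. With 1 library left out in turn, all genes higher ranged from 881 to 4321 and lower from 784 to 5152, nuclear members higher from 0 to 52 and lower from 0 to 17, and list genes higher from 1 to 63 and lower from 6 to 103. In the same fits the nuclear median ranged from -0.018 to 0.35, the mitochondrial median from -1.92 to -0.88, and the log2 ratio of the 2 genomes from -1.77 to -0.63. Sdhb ranged from -0.16 to 0.14 and Cox7a2l from -0.55 to 0.64, each with the sign reversed without KO 2. Without a KO library, or without WT 4, the genotype rests on 1 KO mouse, whose spread is taken to be that of the WT libraries. The cause of these shifts was not tested. Library depth gave at least 53 counts for every mitochondrial gene in each library, and members near 1 CPM are the least certain.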
